A study of Rattus norvegicus with 19 samples.

Results

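The expression of 8 genes of monoamine handling was followed in rat somatosensory cortex on 19 arrays. They are the synthetic enzyme Ddc, the degrading enzymes Maoa and Maob, the serotonin receptors Htr1a, Htr2a and Htr2c, and the adrenoceptors Adra1a and Adrb1. They are 8 of the 14217 genes that a probe set of the array names on its own, and 13 probe sets name them. Where several probe sets name a member, the brightest on average over the 19 arrays was used. Ddc was chosen by its low signal in albumin-treated cortex of the second set of arrays, and the other genes were named with it when results of these data were known. The values of all members in that albumin against sham comparison, and those of Ddc in the other comparisons that use the same arrays, are therefore given as a description without a test.

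All animals were adult male Wistar rats, and every treatment was perfused over the cortex in artificial cerebrospinal fluid. Set 1 used 3 agents. The bile salt deoxycholate (DOC, 2 mM) served to open the blood-brain barrier, with rats killed 7, 24 or 48 h later. Bovine serum albumin (0.1 mM) and TGF-β1 (a cytokine, at 10 ng/ml) were each followed for 8, 24 or 48 h. Each of these 9 conditions has 1 array, and 1 array came from a sham-operated rat at 24 h. Set 2 came from other animals at 24 h. It holds 3 arrays of albumin, 4 of albumin with TGF-β receptor blockers (an antibody to TGF-βR2, 50 µg/ml, and the TGF-βR1 kinase inhibitor SB431542, 100 µM) and 2 of sham-operated rats. The labels do not give the albumin dose of the group with blockers. No group received blockers without albumin, so the blockers' own effect cannot be told apart from their effect on the response to albumin. The comparisons ask how the members' transcripts stood after barrier opening, albumin or TGF-β1, how they moved with time, and how they stood when TGF-β receptors were blocked.

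Aromatic L-amino acid decarboxylase, the product of Ddc, converts L-DOPA to dopamine and 5-hydroxytryptophan to serotonin. The monoamine oxidases remove amine groups from these transmitters: MAO-A prefers serotonin and noradrenaline, and MAO-B, abundant in astrocytes, prefers phenylethylamine. In brain capillaries, decarboxylase and monoamine oxidase together act as an enzymatic barrier that limits the passage of L-DOPA from blood to brain. Serotonin and noradrenaline reach the cortex through fibres from brainstem nuclei, so the cortex itself holds their receptors and the degrading enzymes rather than the cell bodies that make the transmitters.

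Signals are log2 values, so a difference of 1 is a doubling. Within a set the array medians were nearly equal (5.09 to 5.17 in set 1 and 6.05 to 6.18 in set 2), and differences were taken only within a set. Tests covered the genes with a value over 4 on 2 or more arrays of a set, 10018 genes in set 1 and 10329 in set 2. Ddc, Maoa, Maob, Htr2a and Htr2c passed this filter in both sets, Htr1a and Adrb1 passed in set 2 only, and Adra1a passed in neither. Neuronal markers were high on every array, with Snap25 at 14.2 or above. In set 2, albumin replicate 2 was the array least like the others: its correlations with them had a median of 0.981, while that median was 0.992 to 0.995 for each of the remaining arrays.

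Upstream sequence is shown for the enzymes, because Ddc and Maob had similar profiles over the arrays while Maoa, the neighbour of Maob, did not. In the GRCr8 assembly, Ddc lies on chromosome 14 (90592304 to 90682830), and Maob (8490405 to 8594065) and Maoa (8615239 to 8681372) lie on chromosome X. Maob and Maoa stand on opposite strands with their 3′ ends facing each other across 21173 bases. The RefSeq table of promoters held windows for 5 of the 8 members, and 3 of its 7 windows belong to Ddc. Each window below holds the 200 bases from 250 to 51 bases before an annotated transcription start. The Ddc window is the outermost, chr14:90682834-90683033 on the minus strand. The Maob window is chrX:8490155-8490354 on the plus strand and the Maoa window chrX:8681423-8681622 on the minus strand. All are written 5′ to 3′, and capitals mark matches to the motifs searched.
Ddc: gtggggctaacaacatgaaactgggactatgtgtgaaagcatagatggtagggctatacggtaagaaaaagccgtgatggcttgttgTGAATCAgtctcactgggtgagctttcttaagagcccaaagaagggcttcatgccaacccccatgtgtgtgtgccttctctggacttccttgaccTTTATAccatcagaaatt
Maob: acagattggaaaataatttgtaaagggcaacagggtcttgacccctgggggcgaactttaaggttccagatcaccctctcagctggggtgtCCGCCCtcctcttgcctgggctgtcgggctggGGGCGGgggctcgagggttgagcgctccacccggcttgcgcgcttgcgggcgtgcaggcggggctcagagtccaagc
Maoa: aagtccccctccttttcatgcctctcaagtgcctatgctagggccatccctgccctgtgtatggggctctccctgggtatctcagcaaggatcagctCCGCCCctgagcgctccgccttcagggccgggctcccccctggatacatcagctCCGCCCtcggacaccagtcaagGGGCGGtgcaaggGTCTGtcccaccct
The motifs, searched on both strands, were the AP-1 site TGANTCA, the SMAD element CAGAC, the STAT site TTCNNNGAA, the GC box GGGCGG and the TATA element TATAAA. In the Ddc window the capitals are an AP-1 match 163 to 157 bases before the start and a TATA match 68 to 63 bases before it. The AP-1 letters occur in 5.22% and the TATA letters in 9.98% of the 33469 rat windows of the same length. The Maob window holds 2 GC boxes, 159 to 154 and 127 to 122 bases before the start. The Maoa window holds 3 GC boxes and 1 SMAD match, 64 to 60 bases before the start. GC boxes occur in 24.2% and SMAD matches in 36.6% of all windows. Thus no motif of the 5 was found in both the Ddc and the Maob window printed here, and the GC box was the element that Maob and Maoa had in common. A further Ddc window (chr14:90665871-90666070) holds a STAT match 111 to 103 bases before the start, the third Ddc window (chr14:90675677-90675876) holds none of the 5, the Htr2c window holds a STAT match 105 to 97 bases before the start and the Adrb1 window holds none. STAT letters occur in 6.29% of all windows. These matches are descriptions of sequence, not measured sites.

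Ddc was lowest at 24 h after every treatment of set 1 and was higher again at 48 h. The sham array of set 1 read 6.13. After DOC the signal was 2.86 at 7 h, 2.68 at 24 h and 5.35 at 48 h. After albumin it was 3.72 at 8 h, 2.92 at 24 h and 5.10 at 48 h, and after TGF-β1 it was 3.60, 2.89 and 5.48 at the same times. All 9 treated arrays lay below sham, which held for 12.2% of the genes tested. On the linear scale the 24 h arrays stood at 9.13% (DOC), 10.8% (albumin) and 10.6% (TGF-β1) of the sham signal, and the 48 h arrays at 58.3%, 49.1% and 63.9%. The lower quartile of all probe sets was at 2.44 to 2.50 in set 1, so the 7 to 24 h values of Ddc lie toward the bottom of the scale and the size of the difference from sham depends on that floor.

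The 3 values at 48 h did not overlap those at 24 h, as was so for 10.8% of genes in the upward direction. Ddc passed the filter in set 1 only through the sham and the 48 h arrays, so with the filter it had to differ between these and the other arrays, and its calls are given here with and without the filter. With each treatment's level as a term, Ddc rose from 24 to 48 h by 2.48 ± 0.20 (SE, 3 arrays per time), or 5.59-fold (limma, 95% interval 2.00 to 2.97; adjusted p = 0.0050 with the filter and 0.0332 over all genes without it). In that comparison 1.41% of all genes passed the threshold, 1.3% upward. Leaving out each of the 9 treated arrays in turn gave differences of 2.29 to 2.69 (limma, adjusted p of 0.0057 to 0.0395). All these fits used the filter, which favours this difference, and none was run without it. They are no independent support and do not show how stable the call without the filter is. Between 7 or 8 h and 24 h the difference was −0.56 ± 0.20 (limma, adjusted p = 0.285), and those values overlapped. The 3 treatments had Ddc profiles alike in order, and the limma F test between them gave an adjusted p of 0.562, with the extreme treatments 0.36 apart and 0.00998% of all genes past the threshold. That test does not show that the treatments act alike.

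The comparisons with sham rest on 1 sham array at 24 h, whose own spread was not measured and is taken to be that of the treated arrays. The arrays at 7, 8 and 48 h have no sham of their own time. Their differences from sham therefore cannot be told apart from changes with time after surgery. This holds for every member and list in set 1. Averaged over the 3 times, the Ddc difference from sham was −2.50 ± 0.29 (SE) after DOC (limma, adjusted p = 0.0458 with the filter and 0.0583 without it), a comparison in which 0.469% of genes passed, 0.15% downward. After albumin the difference was −2.21 ± 0.29 (limma, adjusted p = 0.0385 with the filter and 0.0820 without it), where 0.369% of genes passed and 0.0299% downward. After TGF-β1 it was −2.14 ± 0.29 (limma, adjusted p = 0.105 with the filter and 0.130 without it), where 0 genes of 10018 passed and 750 (7.49%) had an unadjusted p under 0.05. The 3 comparisons share that array. None of the 3 passed without the filter. The DOC and the albumin calls made with it were each lost in 7 of the 9 fits that left out 1 treated array, with adjusted p as high as 0.110 and 0.104, both without TGF-β1 at 8 h. The DOC call was kept without DOC at 48 h or albumin at 48 h, and the albumin call without DOC at 7 h or DOC at 48 h.

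**Figure D1:**
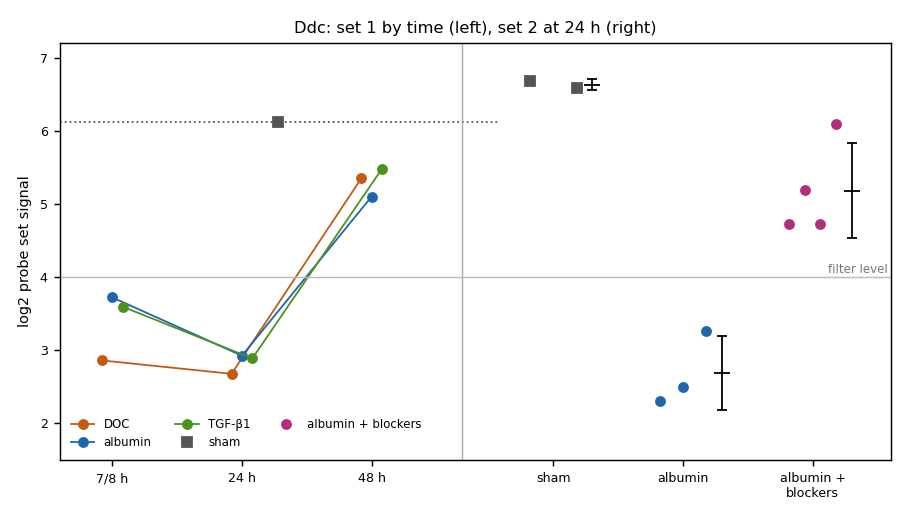
Ddc signal (log2) on every array. Left, set 1 by time after DOC, albumin or TGF-β1 with lines joining arrays of 1 agent and a dotted line at the sham array (6.13). Right, the 9 arrays of set 2 at 24 h with the mean and SD of each group. The grey line is the filter level of 4. The 24 h arrays of set 1 and the albumin arrays of set 2 lie below 4, and all sham and blocker arrays lie above it.

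In set 2 the Ddc signal of the sham arrays was 6.69 and 6.58. The 3 albumin arrays read 2.30, 2.49 and 3.26. The 4 arrays with blockers read 4.73, 5.19, 4.73 and 6.10. The groups did not overlap, and the order was sham, then blockers, then albumin. The albumin mean was 2.69 ± 0.51 (SD, n = 3), the mean with blockers 5.18 ± 0.65 (SD, n = 4) and the sham mean 6.64 ± 0.08 (SD, n = 2). The difference of albumin from sham was −3.95 ± 0.43 (SE), a level of 6.48% of the sham signal on the linear scale. In that comparison 1.33% of genes passed the threshold (0.368% downward) and 19.2% had all albumin arrays below all sham arrays. Because the choice of Ddc used these values, nothing is read from that share. Ddc passed the filter in set 2 only through the sham and blocker arrays.

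With blockers Ddc stood 2.50 ± 0.36 (SE) above albumin alone, a 5.65-fold difference, and its difference from sham was −1.45 ± 0.41 (SE). The highest of the blocker arrays reached 68.9% of the sham mean on the linear scale and the lowest 26.6%. Between blockers and albumin 0.0194% of genes (2 of 10329) passed, both lower with blockers (0 without either sham array or without blocker replicate 1, 2 or 4, and 28 without albumin replicate 1), while 7.32% had all blocker arrays above all albumin arrays. Between blockers and sham 0 genes passed (limma), 444 (4.3%) had an unadjusted p under 0.05, and 8.32% had all blocker arrays below both sham arrays. Without albumin replicate 2, the array that stood apart, the albumin difference from sham was −3.85 and the blocker difference from albumin 2.40.

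The Ddc values rest on 1 probe set, whose _a_at suffix marks alternative transcripts of 1 gene. The second Ddc probe set stayed between 1.83 and 2.19 on all 19 arrays and gives no measurement of these differences. In bulk tissue, fewer cells of a type and less RNA per cell cannot be told apart, and this holds for every member.

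Maob had its lowest values at the same times as Ddc, within a smaller range. In set 1 it read 9.62, 9.26 and 9.92 after DOC at 7, 24 and 48 h. It read 9.71, 8.64 and 9.79 after albumin and 9.66, 9.42 and 10.35 after TGF-β1 at 8, 24 and 48 h, against 10.06 in sham. The lowest value of each treatment was the one at 24 h, and 8 of the 9 treated arrays lay below sham, TGF-β1 at 48 h being above it. The 48 h values were all above those at 24 h, as was so for 10.8% of genes. The difference of 0.92 ± 0.18 (SE) did not pass the threshold (limma, adjusted p = 0.0767). It passed when limma was run with a trended, robust prior (adjusted p = 0.0439). It did not pass without the filter (adjusted p = 0.147), with a mean above 5 required (0.0862), or in any of the 9 fits without 1 treated array. The 24 h values were all below those at 7 or 8 h, which 7.98% of genes showed, and that difference was −0.55 ± 0.18 (limma, adjusted p = 0.255). In that comparison 0.799% of all genes passed, 0.299% downward. Differences from sham averaged over time were −0.47 after DOC, −0.69 after albumin and −0.26 after TGF-β1, each with an SE of 0.26, and none passed (limma, adjusted p = 0.382, 0.365 and 0.992).

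In set 2 Maob read 11.21 and 10.96 in sham, 10.21, 9.78 and 10.00 with albumin, and 10.88, 10.52, 10.36 and 11.23 with blockers. All albumin arrays lay below both sham arrays, as was so for 19.2% of genes, and below all blocker arrays, as for 7.32%. The blocker arrays overlapped sham. Albumin lay at 46.8% of the sham signal (difference −1.10 ± 0.25, SE). Blockers lay 0.75 ± 0.21 (SE) above albumin, a 1.69-fold difference that did not pass over all genes (limma, adjusted p = 0.187, unadjusted p = 0.0072, 95% interval 0.27 to 1.24). Their difference from sham was −0.34 ± 0.24 (limma, adjusted p = 1.0).

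Maoa varied little between arrays. Set 1 ranged from 10.38 to 11.03 with sham at 10.47, and set 2 ranged from 11.38 to 11.56. The highest set 1 value was DOC at 24 h, and the other 8 treated arrays lay between 10.38 and 10.80. No Maoa comparison passed. The difference of 48 h from 24 h was 0.06 (95% interval −0.29 to 0.41), and that of blockers from albumin was 0.06 (95% interval −0.12 to 0.24). In set 2 albumin differed from sham by −0.01 (95% interval −0.22 to 0.20). The Maoa probe set carries the _s_at suffix of probes that can match several transcripts, so part of its signal may come from another gene.

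**Figure D2:**
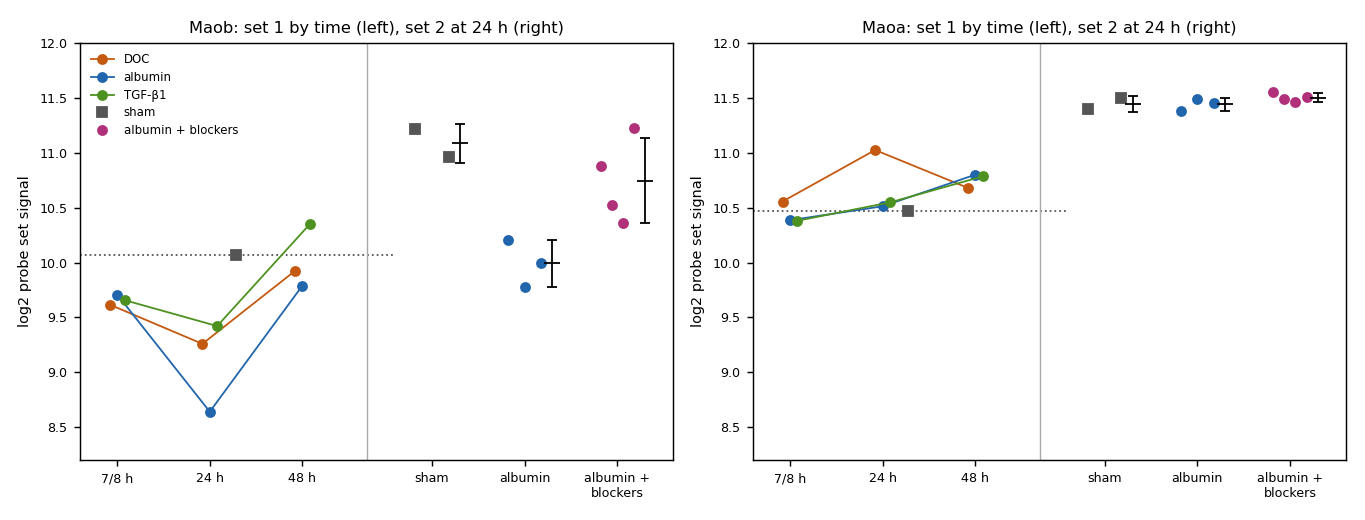
Maob (left panel) and Maoa (right panel) signal (log2) on every array, drawn as for Ddc: set 1 by time with the sham array as a dotted line, set 2 with mean and SD per group. Maob is lowest at 24 h for all 3 agents and its 3 albumin arrays in set 2 (9.78 to 10.21) lie below the sham and blocker arrays. Maoa spans 11.38 to 11.56 over all of set 2.

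Over the 19 arrays, with each set centred on its own mean, the Pearson correlation of Ddc with Maob was 0.85, the 7th highest among the other genes tested in both sets (9841 genes), and with Maoa it was 0.06. These correlations describe arrays that share treatments and sets and carry no p. The 8 genes with the highest correlation with Ddc were Lcat (0.91), the cholesterol-esterifying enzyme of plasma lipoproteins, Ctso (0.89), a cysteine protease, Aif1l (0.87), Gdf11 (0.87), a ligand of the TGF-β superfamily, Atp13a5 (0.85), Fundc1 (0.85), a mitochondrial outer membrane protein, Maob (0.85) and Abcb1a (0.84). Abcb1a encodes P-glycoprotein, the drug efflux pump of brain capillary endothelium. It read 9.04 to 9.28 in sham, 7.45 to 8.05 with albumin and 8.13 to 8.89 with blockers in set 2. In set 1 it read 6.46 in sham, 5.21 to 6.12 at 7 or 8 h, 5.52 to 6.20 at 24 h and 6.61 to 6.77 at 48 h. Lcat read 7.97 to 8.60 in sham, 5.34 to 6.37 with albumin and 6.53 to 8.13 with blockers. For both genes the albumin arrays lay below the sham and blocker arrays, an order that choosing them by correlation with Ddc on these arrays favours. The genes most like Maob were Cdc42ep4 (0.92) and Evi2a (0.92), and those most like Maoa were Nln (0.83) and Anp32e (0.81). For the receptors they were Klhl29 (0.70) and Zfp84 (0.69) with Htr2a, Idi1 (0.89) and Ggnbp2 (0.84) with Htr2c, Isoc2a (0.91) and Cpne6 (0.89) with Htr1a, and Abhd14a (0.83) and Cbx7 (0.81) with Adrb1. Adra1a, whose values vary only at the floor of the scale, had Jazf1 and Tbc1d15 (both 0.78).

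The serotonin receptors did not pass in any tested comparison. Htr2a, the Gq-coupled receptor that excites cortical pyramidal neurons, ranged from 7.32 to 8.42 in set 1 with sham at 7.93. Its DOC values were 8.39 at 7 h, 8.00 at 24 h and 7.32 at 48 h, its albumin values 8.17, 7.99 and 8.42, and its TGF-β1 values 8.35, 8.10 and 7.78 at 8, 24 and 48 h. On this probe set the 24 h values were all below those at 7 or 8 h, as was so for 7.98% of genes. By 48 h the treatments lay on both sides of sham. The difference of 24 h from 7 or 8 h was −0.27 ± 0.24 (limma, adjusted p = 0.655). In set 2 Htr2a ranged from 8.61 to 9.28 and all 3 groups overlapped, with blockers against albumin at −0.09 (95% interval −0.48 to 0.31). Of its 4 probe sets, a second one also passed the filter and the other 2 never exceeded 4. The second one differed in course in set 1. Its 24 h values (4.47, 4.96 and 4.98 after DOC, albumin and TGF-β1) overlapped those at 7 or 8 h (4.68, 4.94 and 5.46). Its DOC values were below its sham value of 5.23 at every time.

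Htr2c, a Gq-coupled receptor best known for its high level in choroid plexus, spanned 6.81 to 8.47 in set 1. After DOC it read 8.47, 6.81 and 7.90 at 7, 24 and 48 h. After albumin it read 7.71, 8.14 and 7.30 and after TGF-β1 7.61, 7.28 and 7.29 at 8, 24 and 48 h, with sham at 7.32. The agents did not share a course: at 24 h DOC gave the lowest value of the set and albumin the second highest. The SE of its time differences was 0.38, against 0.15 to 0.24 for the other members tested in set 1, and neither passed (24 h against 7 or 8 h, −0.52, adjusted p = 0.567; 48 h against 24 h, 0.08, adjusted p = 0.930; limma). In set 2 it ranged from 7.45 to 8.37. Albumin replicate 2 held the highest value, and blockers differed from albumin by −0.26 (95% interval −0.67 to 0.14). The choroid plexus markers Kl and Otx2 never exceeded 4 in either set. Of the 5 measured markers of that list Ttr alone passed the filter, and it read 4.71 and 8.42 in the sham arrays of set 2, 4.92 to 5.15 with albumin and 4.00 to 6.89 with blockers. Its part in the Htr2c values was not tested.

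Htr1a, the inhibitory Gi-coupled serotonin receptor, was below the filter on every array of set 1 (2.46 to 3.36). In set 2 the sham arrays read 4.83 and 4.56, the albumin arrays 4.72, 3.54 and 5.05, and the blocker arrays 4.89, 4.81, 4.56 and 5.05. The low albumin value is replicate 2, the array that stood apart. Blockers differed from albumin by 0.39 (95% interval −0.36 to 1.14), and by −0.06 without that array.

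Of the adrenoceptor members, Adrb1 passed the filter in set 2 only and Adra1a in neither set. Adrb1, the Gs-coupled beta receptor of cortical neurons, lay below the filter in set 1, with the 9 treated arrays at 3.23 to 3.47 and sham at 3.79. In set 2 it read 6.30 and 5.80 in sham and 5.75, 5.53 and 5.96 with albumin. The 4 blocker arrays lay together at 5.76 to 5.77. They were just below both sham arrays, as was so for 8.32% of genes, by less than the gap between the sham arrays. The difference from sham was −0.28 (95% interval −0.65 to 0.09; limma, adjusted p = 1.0). Blockers differed from albumin by 0.03 (95% interval −0.30 to 0.35). Adra1a, a Gq-coupled receptor, stayed near 2.2 to 2.3 on all 19 arrays, at the bottom of the scale, so these arrays hold no measurement of how it responded.

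**Figure D3:**
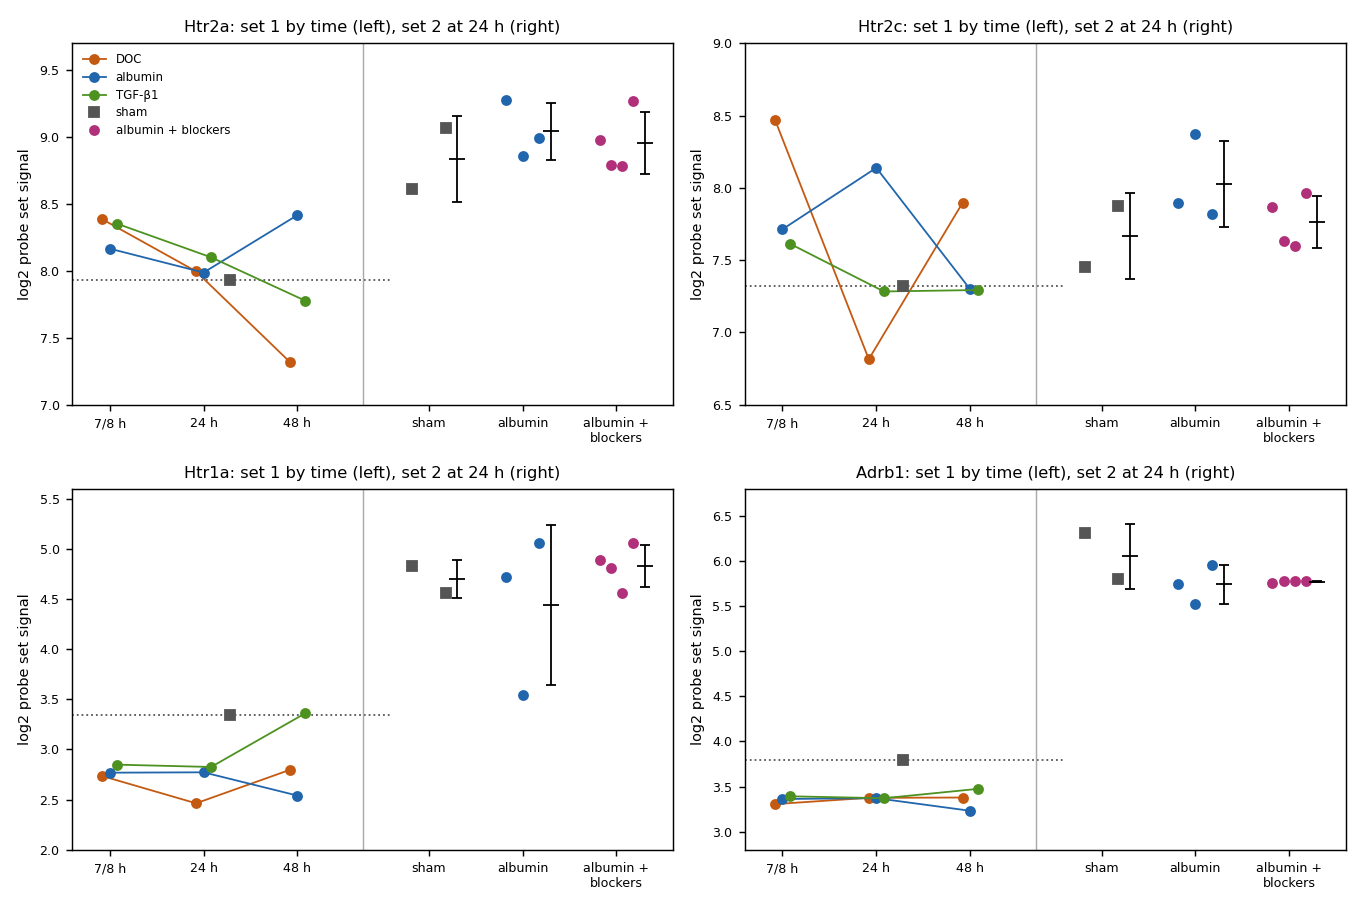
Signal (log2) of Htr2a, Htr2c, Htr1a and Adrb1 on every array, with set 1 by time and agent (dotted line, sham array) and set 2 by group with mean and SD. The y axes differ between panels. In set 2 the 3 groups of Htr2a, Htr2c and Htr1a overlap, and the low Htr1a value of 3.54 is albumin replicate 2.

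The other genes of monoamine handling were taken from 6 lists of synthesis and cofactor enzymes, transporters, degrading enzymes, serotonin receptors, adrenoceptors, and dopamine, histamine and trace amine receptors. Of 52 genes, 45 had a probe set naming them alone, and 17 passed the filter in set 2 and 14 in set 1. Dbh, which makes noradrenaline, Pnmt, which makes adrenaline, the vesicular transporters Slc18a1 and Slc18a2, and the plasma membrane transporters Slc6a2, Slc6a3 and Slc6a4 never exceeded 4. Th, the first enzyme of catecholamine synthesis, did pass the filter and ranged from 3.10 to 4.69 in set 1 and from 3.17 to 5.12 in set 2. The other 11 listed serotonin receptors stayed below 4 in set 1, and 10 of them did in set 2, Htr5a being the exception.

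In the set 2 comparison of albumin with sham, 0 of the 17 passed (limma), 4 had an unadjusted p under 0.05, as had 21.4% of all genes, and the median difference was −0.28 against 0.02 over all genes. Between blockers and albumin 0 of 17 passed, 3 had an unadjusted p under 0.05 (16.6% of all genes), and the median was 0.26 against 0.00. Between blockers and sham 0 of 17 passed, 2 had an unadjusted p under 0.05 (4.3% of all genes), and the median was −0.13 against 0.02. Among them Gch1, the first enzyme of the tetrahydrobiopterin cofactor that monoamine synthesis needs, read 2.48 to 2.52 in sham, 3.08 to 4.58 with albumin and 2.47 to 2.59 with blockers. Gch1 passed the filter only through the albumin arrays, so it had to differ, and its difference of −1.47 ± 0.31 (SE) between blockers and albumin is given without a test. Gch1 is also among the 4 genes counted above for albumin against sham and the 3 for blockers against albumin. Nothing is therefore read from those counts beside the shares of all genes. Sult1a1, a sulfotransferase of phenols including catecholamines, read 8.83 to 9.04 in sham, 5.50 to 7.78 with albumin and 7.49 to 9.31 with blockers (blockers against albumin 1.62 ± 0.63, limma, adjusted p = 0.267). Adra2a, the inhibitory alpha-2A receptor, read 7.96 in both sham arrays, 6.77 to 7.54 with albumin and 6.81 to 7.39 with blockers. Its albumin and blocker values overlapped. Adra1b, an excitatory alpha-1 receptor, read 7.18 to 8.07 with albumin and 8.07 to 8.86 with blockers (0.77 ± 0.24, limma, adjusted p = 0.20). Between the same groups the differences were −0.60 for Htr5a, −0.40 for Hrh1 and 0.92 for the transporter Slc22a3, with adjusted p from 0.339 to 0.579. Blockers against sham gave 0.27 for Rnls and 0.18 for the dopamine receptor Drd1, each with an adjusted p of 1.0. Th read 3.17 and 3.20 in sham and passed the set 2 filter only through albumin and blocker arrays. Its difference of 0.67 between blockers and sham is therefore given without a test.

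In set 1, 1 of the 14 passed in 1 comparison, 24 h against 7 or 8 h, where 0.799% of all genes passed. In it 3 of the 14 had an unadjusted p under 0.05 (limma), as had 14.1% of all genes. Sult1a1 fell from 9.07 to 9.44 at 7 or 8 h to 6.66 to 8.01 at 24 h (difference −1.70 ± 0.26, limma, adjusted p = 0.0430), and this call was lost in each of the 9 fits without 1 treated array and in the fit without the filter (adjusted p = 0.137). Between 48 and 24 h 0 of 14 passed, 4 had an unadjusted p under 0.05 (16.3% of all genes), and the median was −0.03 against −0.01 over all genes. Qdpr, which recycles tetrahydrobiopterin, read 8.87 to 10.33 at 24 h and 10.28 to 11.13 at 48 h (0.93 ± 0.23, limma, adjusted p = 0.131), with sham at 11.25. Slc22a3, an extraneuronal monoamine transporter, read 4.11 to 6.39 at 24 h and 6.56 to 6.88 at 48 h (1.19 ± 0.42, limma, adjusted p = 0.240). Hrh1, the H1 histamine receptor, read 5.43 to 6.76 at 24 h and 4.33 to 5.14 at 48 h (−1.39 ± 0.27, limma, adjusted p = 0.0703, and 0.0329 without TGF-β1 at 8 h). Against sham, 0 of 14 passed for DOC, albumin or TGF-β1, and 4, 4 and 1 had an unadjusted p under 0.05, against 18.7%, 11.9% and 7.49% of all genes. Qdpr lay below its sham value after each agent (−1.64 after DOC, −0.90 after albumin and −0.77 after TGF-β1, adjusted p = 0.0882, 0.340 and 0.667). Rnls, the flavoprotein renalase, lay above it after DOC by 1.04 ± 0.25 (limma, adjusted p = 0.122) and after TGF-β1 by 0.96 ± 0.25 (adjusted p = 0.350). Adra2a gave −1.20 after DOC and −1.06 after albumin (adjusted p = 0.222 and 0.420), and Sult1a1 gave −1.68 after albumin (adjusted p = 0.125). Drd1 gave 1.34 after albumin and 1.06 after TGF-β1 (adjusted p = 0.512 and 0.890). A list of striatal markers that includes Drd1 had 3 of 3 measured members above sham after these agents (medians 0.14 and 0.86). After DOC 1 of 3 was above sham (median −0.17). The part of striatal tissue in the Drd1 values was not tested.

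**Figure D4:**
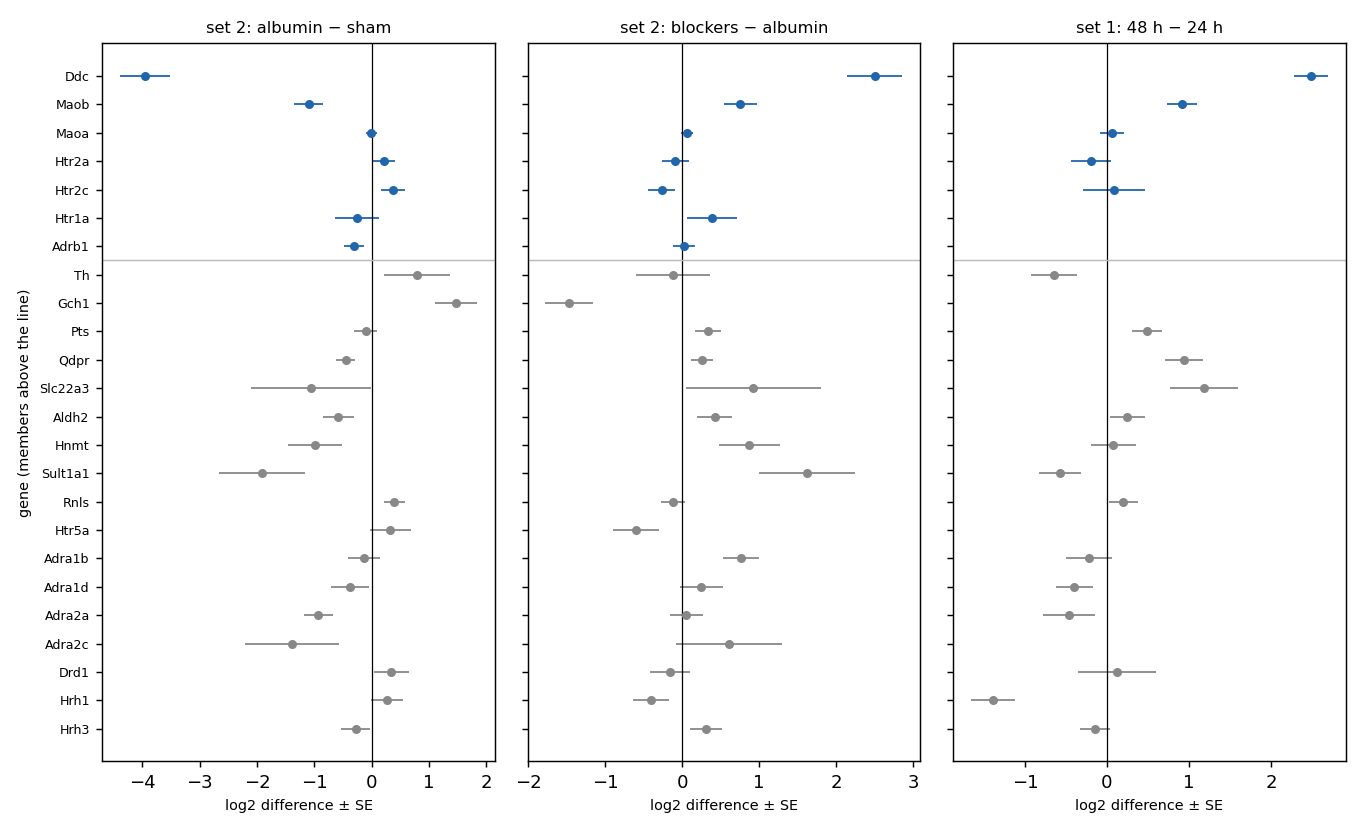
Log2 difference with its SE for the members (blue, above the grey line) and the other tested genes of the lists (grey) in 3 comparisons: albumin minus sham and blockers minus albumin in set 2, and 48 h minus 24 h in set 1. Genes without a point did not pass the filter in that set. The Ddc differences are −3.95, 2.50 and 2.48. Ddc was chosen by its set 2 values and passed the set 1 filter only through sham and the 48 h arrays, so its place among the genes is no result. Maoa lies near 0 in all 3 panels.

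Marker lists of the cell types that a cortical sample can hold were read on the same arrays. The meningeal list stood lowest in the same set 2 group as Ddc: with albumin 10 of its 11 measured members lay below sham (median −1.82), and its summed linear signal was 5781 to 9012 against 21320 to 31440 in sham and 8797 to 20270 with blockers. With blockers 11 of 11 lay below sham, with a median of −0.50. Ptgds, its most abundant gene, read 14.05 to 14.68 in sham, 11.58 to 12.39 with albumin and 12.71 to 13.98 with blockers. The next, Mgp, read 9.91 to 10.30, 10.20 to 10.93 and 9.30 to 10.62, and Dcn read 8.35 to 8.42, 6.81 to 9.11 and 7.95 to 8.13. The part of the meninges in the set 2 values of Ddc was not tested. In set 1, where Ddc was below sham on every treated array, the same list was above sham: 9 of 10 members at 7 or 8 h (median 0.69), 8 of 10 at 24 h (0.28) and 8 of 10 at 48 h (1.99). Its summed signal there spanned the sham value of 3437 at each time (3411 to 9012, 2231 to 5235 and 2520 to 6957). The meningeal transporters Slc22a6, Slc6a13 and Slc47a1 never exceeded 4 in either set.

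The lists of vessel cells had smaller median differences from sham, but their summed signals in set 2 were lowest with albumin. The pericyte list had a median difference from sham of −0.09 with albumin (4 of 7 below) and 0.05 with blockers (2 of 7 below) in set 2, where its summed signal was 1048 to 1138 in sham, 652 to 940 with albumin and 898 to 1422 with blockers. Its 3 most abundant genes differed in course. Rgs5 read 8.41 to 8.42 in sham, 7.45 to 8.09 with albumin and 7.86 to 9.16 with blockers, and Vtn read 7.83 to 8.52, 5.47 to 7.04 and 7.41 to 8.16. Abcc9 read 6.93 to 7.30, 6.96 to 7.68 and 7.24 to 7.80, with overlapping groups. In set 1, 4 of 4 measured members were below sham at 7 or 8 h (−0.46) and at 24 h (−0.15), and 2 of 4 at 48 h (0.07). Its summed signal was 268 to 315 at 7 or 8 h, 298 to 331 at 24 h and 435 to 537 at 48 h, against 371 in sham. The pericyte markers Anpep and Notch3 never exceeded 4 in either set, nor did Pdgfrb, Cspg4 and Kcnj8 in set 1. The endothelial list had medians of 0.26 and 0.08 in set 2, with 3 of 8 below sham in each group. Its summed signal there was 6230 to 6319 in sham, 4638 to 4980 with albumin and 5164 to 6812 with blockers. Cldn5, the tight junction protein of brain endothelium, read 11.22 to 11.44, 10.35 to 10.90 and 11.13 to 11.44 in the same groups. Tek, an endothelial receptor, read 8.36 to 8.51, 8.43 to 8.60 and 8.37 to 8.81 there. In set 1 the endothelial medians were −0.24, −0.14 and 0.07 at the 3 times, with 4, 4 and 3 of 8 below sham. Its summed signal was 1606 to 2442 at 7 or 8 h, 1836 to 2497 at 24 h and 3528 to 4104 at 48 h, against 3231 in sham, and all 8 members were above 4 on some array of each set. Slco1a4, a transporter of brain capillary endothelium, read 10.82 to 10.99 in sham, 8.70 to 9.84 with albumin and 9.79 to 10.99 with blockers in set 2. In set 1 it read 10.25 in sham, 7.61 to 9.22 at 7 or 8 h, 6.94 to 9.62 at 24 h and 10.31 to 10.44 at 48 h, so the arrays up to 24 h lay below sham and those at 48 h just above it. The part of vessel cells in the Ddc values was not tested.

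Astrocyte markers, which bear on Maob, had medians of −0.37 with albumin and −0.12 with blockers in set 2 (5 of 7 below sham in each) and of 0.08, −0.11 and −0.04 at the 3 times of set 1 (3, 5 and 4 of 7 below). Their summed signal in set 2 was 70670 to 82460 with albumin, 83070 to 90480 with blockers and 83630 to 88810 in sham, and none of the 7 was below 4 throughout. Their 3 most abundant genes went different ways in set 2. S100b read 14.77 to 14.93 in sham, 14.05 to 14.48 with albumin and 14.48 to 14.82 with blockers. Gja1 read 14.24 to 14.31, 13.24 to 13.83 and 14.05 to 14.39 in the same groups. Gfap was highest with albumin, at 12.70 to 13.91, 14.52 to 14.61 and 13.64 to 14.42. The part of astrocyte number in the Maob values was not tested. The neuronal list, which bears on the receptors, had medians between −0.22 and 0.03 in the 5 groups. Ddc lay below sham in every treated group, and 3 of 3 measured blood leukocyte markers lay above sham there. Their medians were 3.52 with albumin and 1.36 with blockers in set 2 and 3.24, 1.57 and 0.70 at the 3 times of set 1. S100a8 of that list read 3.55 to 3.74 in the sham arrays of set 2 and 3.34 in that of set 1. It passed the filter only through treated arrays, which favours values above sham. Cd3e of that list never exceeded 4. Microglial markers had medians of 0.04 with albumin and 0.21 with blockers in set 2 and of −0.13 and 0.18 at the first 2 times of set 1, and 7 of 7 were above sham at 48 h (median 1.73), the time at which Ddc was higher again. P2ry12 is among the 3 most abundant microglial genes. In set 2 it read 9.20 to 9.42 in sham, 6.26 to 7.62 with albumin and 8.07 to 9.40 with blockers. Its set 1 values were 8.88 in sham and 7.21 to 8.21 at 7 or 8 h. They were 6.02 to 8.09 at 24 h and 9.81 to 10.01 at 48 h. For Csf1r and Aif1 the set 2 groups overlapped. At 24 h in set 1 Csf1r spanned its sham value and Aif1 lay above it. Whether leukocytes or microglia had a part in the Ddc values was not tested.

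**Figure D5:**
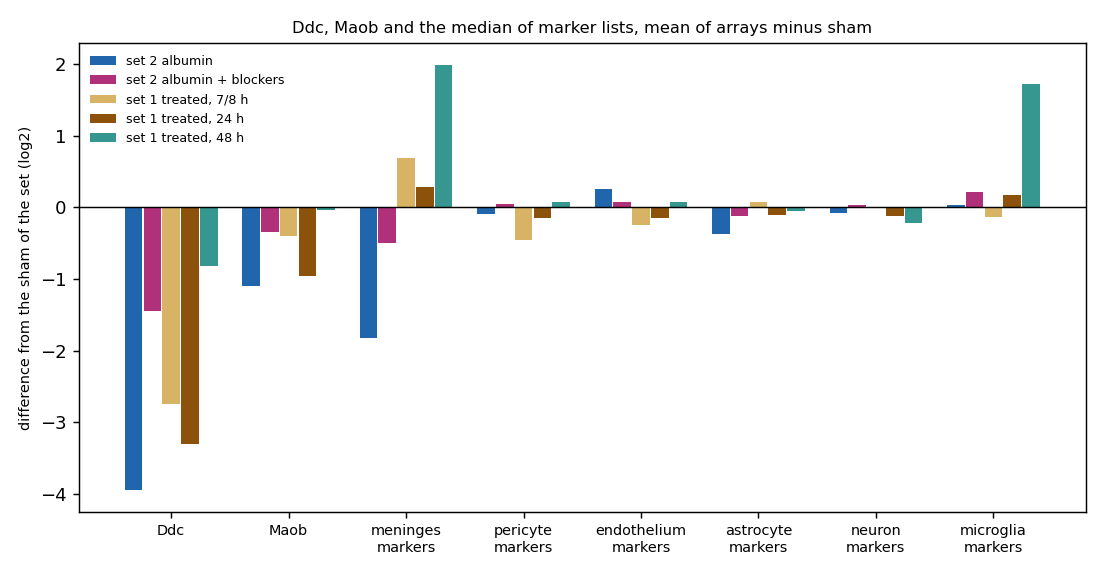
Difference from the sham of the same set (log2, mean of the group's arrays) for Ddc and Maob, and the median of that difference over the measured members of 6 marker lists, in 5 groups of arrays. Bars carry no error, since set 1 has 1 sham array, taken at 24 h. Ddc is below 0 in all 5 groups (−3.95 with albumin in set 2), while the meningeal list is below 0 in set 2 (−1.82 with albumin) and above 0 in set 1 (1.99 at 48 h).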

How the data were processed

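RNA from 19 cortices was hybridised to Affymetrix rat arrays. Values are used as deposited: log2 signals of probe sets, made by the authors using GCRMA according to the submitters' processing notes, with no version stated there. GCRMA subtracts background and leaves dim probe sets near a common floor, which compresses their differences. Genes were named from the platform annotation, updated by Entrez identifier to GRCr8 for 20764 of 20826 probe sets naming 1 gene.

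Tests were limma linear models (lmFit and eBayes, limma 3.58.1, R 4.3.3; two-sided, Benjamini-Hochberg over all tested genes, threshold 0.05): set 2 with 3 groups in 1 fit, set 1 with additive treatment and time and a separate level for its sham. Descriptions used Python 3.11.15. The scripts were checked on simulated data. Members and lists were chosen with earlier results of these data known. The text names all 8 members and list genes past the threshold, or otherwise with the smallest p of their list. It also names the 8 genes most correlated with Ddc, 2 for each other member, and genes of highest level from some of the marker lists. Genes named as never above 4 were chosen with their values seen. Set 2 animals are separate per the series text. The number of arrays limits the precision. Alternatives were other filters, priors, centring, probe set means, fits and arrays left out. Some genes of the lists were not analysed here.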

Additional observations from a re-analysis of the deposited data

How the results depend on the processing

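All alternatives here were planned ones. Counts of genes past the threshold moved with most settings, and in set 1 each condition has 1 array. Without the filter the counts were 27 (albumin against sham, set 2), 1 (blockers against albumin), 75 (DOC), 6 (TGF-β1), 0 (24 h against 7 or 8 h), 57 (48 h against 24 h) and 2 (between treatments), against 137, 2, 47, 0, 80, 141 and 1 in the report, and the Ddc calls were lost for DOC (adjusted p = 0.0583, difference −2.50) and albumin (0.0820, −2.21). With a mean above 5 required they were 0 (blockers against albumin), 1 (TGF-β1), 50 (48 h against 24 h) and 2 (between treatments), and Ddc was not tested. A trended robust prior gave 0 (blockers against albumin), 61 (set 1 albumin), 7 (TGF-β1), 126 (24 h against 7 or 8 h) and 2 (between treatments). Centring gave 89 (set 2 albumin) and 61 (set 1 albumin), and turned Htr2a after DOC to 0.0080. Averaging probe sets gave 1 (DOC) and 13 (set 1 albumin), and Ddc differences of −1.98, 1.25 and −0.73 in set 2, since that mean includes the probe set at the floor; Ddc then failed the filter in set 1. Only the 2 groups compared gave 4, 0 and 2 genes in set 2. All 19 arrays gave 526, 597 and 11 genes for DOC, albumin and TGF-β1, and the Ddc difference after TGF-β1 was then −2.44. That fit also uses the set 2 arrays by which Ddc was chosen, so no call is read from it. Levels at 24 h gave 31 (DOC) and 62 (albumin), and −0.12 for Htr2c after TGF-β1. The cause of the other moves was not tested.

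With the replicate number as a block, the set 2 counts were 53, 0 and 1 and Htr1a against sham was −0.050. Same-numbered albumin and blocker arrays had deviations correlated at 0.22, 0.22 and 0.05, and not every array correlated best with its own number. The labels give a number and do not say that it pairs arrays. These correlations cannot decide whether it does, and the reported fits treat the arrays as unpaired.

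Leaving out 1 array gave 1 (without sham replicate 2) to 190 (without blocker replicate 4) genes for albumin against sham, 0 to 28 (blockers against albumin) and 0 to 1 (blockers against sham) in set 2, and in set 1 1 to 202 (DOC), 2 to 117 (albumin), 0 to 5 (TGF-β1), 1 to 126 (24 h), 35 to 103 (48 h) and 1 to 4 (between treatments). Ddc ranged from −4.24 to −3.76, 2.19 to 2.79 and −1.75 to −1.30 in set 2, and from −2.69 to −2.26, −2.41 to −2.0 and −2.19 to −2.08 against the set 1 sham. Leaving out 1 array changed the sign of these differences, none of them past the threshold. Blockers against albumin ranged from −0.059 to 0.69 (Htr1a), −0.19 to 0.028 (Htr2a), −0.082 to 0.13 (Adrb1) and −0.32 to 1.78 (Slc22a3). Blockers against sham ranged from −0.0025 to 0.26 (Htr1a), −0.11 to 0.35 (Htr2a), −0.11 to 0.31 (Htr2c), −0.17 to 0.54 (Drd1) and −0.31 to 0.12 (Slc22a3). Albumin against sham in set 2 ranged from −0.015 to 0.70 (Drd1), −1.91 to 0.18 (Slc22a3) and −0.088 to 0.58 (Htr5a). In set 1 Htr2a ranged from −0.21 to 0.24 after DOC and −0.073 to 0.46 after albumin. After albumin Htr2c ranged from −0.069 to 0.64 and Slc22a3 from −0.76 to 0.00045. From 7 or 8 h to 24 h the ranges were −0.99 to 0.013 (Htr2c) and −0.86 to 0.25 (Slc22a3), and from 24 to 48 h −0.029 to 0.22 (Maoa), −0.52 to 0.082 (Htr2a) and −0.45 to 0.55 (Htr2c).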
